A study of Mus musculus with 14 samples.

Results

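Caspases are proteases that cut other proteins after aspartate and carry out apoptosis. Initiator caspases (caspase-8 at death receptors, caspase-9 on the apoptosome, caspase-2 on the PIDDosome) are switched on by assembly into a complex, and executioner caspases such as caspase-6 then cut the cell's structural proteins. Inhibitor of apoptosis proteins (IAPs) such as XIAP and cIAP1 bind caspases or the complexes that activate them, and c-FLIP, a catalytically dead relative of caspase-8, occupies its place at death receptors. DNA damage is known to reach this machinery through p53, largely by way of genes that act upstream of the caspases.

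The 8 genes described here are Casp2, Casp8, Casp9, Casp6 and Casp12, the IAP genes Xiap and Birc2, which encodes cIAP1, and Cflar, which encodes c-FLIP. They were taken by symbol from the 20207 genes listed for each library, and every one of the 8 symbols was present. The cells were fibroblasts grown from mouse embryos (MEFs), strain 129/Sv, and their poly(A) RNA was read from the 3' end. The groups were p53-null cells with doxorubicin (2 libraries), p53-null cells untreated (2), wild-type cells with doxorubicin (3) and wild-type cells untreated (3). Doxorubicin, a topoisomerase II poison that breaks DNA, was given at 0.2 µg/ml for 6 h. The labels name the null genotype as p53-/- without describing the allele, and they do not say whether numbered replicates were separate embryos or cultures. The p-values therefore reflect only how far these libraries spread. That spread may be technical in part, and sex-linked reads, given below, differed between replicates of some groups. The question set by the study's design is which genes respond to DNA damage with and without p53, and which differ at rest.

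Levels are in CPM, a gene's reads scaled to a common library size with trimmed means, and in reads where these are few. Changes are log2 folds of CPM plus 0.5 with their standard error (SE), so that the changes of genes near 0.5 CPM are understated. A gene counts as changed where the Benjamini-Hochberg adjusted p of limma's trend test over all tested genes was under 0.05. Testing was limited to the 11177 genes that reached 1 CPM in 2 or more libraries. Among them were 5 of the 8 members: Casp2, Casp8, Casp9, Xiap and Cflar. Casp6, Casp12 and Birc2 fell below that level. Casp2 passed it in 3 libraries, all of them p53-null, so its level there decided whether it was tested. Because reads were counted at 3' ends and transcript lengths were not used, levels are compared between groups and not between genes.

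Depth went with genotype. Treated p53-null libraries held 25252375 to 25970157 reads over the listed genes and untreated ones 18099507 to 18698205, against 10602049 to 11770448 in treated and 9768396 to 11701250 in untreated wild-type libraries. Genes with a read also went with genotype, at 16435 to 17161 in p53-null and 13549 to 14547 in wild-type libraries. So did the trimmed-mean scaling factors, at 1.045 to 1.224 in p53-null and 0.860 to 0.951 in wild-type libraries. All 12 fibroblast markers were tested, with summed levels of 4046 to 5883 CPM in p53-null and 3233 to 7447 CPM in wild-type libraries. The 14 macrophage and blood markers, none of which was at 0 in all libraries, summed to 82.6 to 123.8 CPM in treated and 101.8 to 117.8 CPM in untreated p53-null cells. In wild type they summed to 47.6 to 254.3 CPM in treated cells and 99.5 to 560.4 CPM in untreated cells, where replicate 1 was the low library of each treatment. In such bulk samples fewer cells of a type and less RNA per cell cannot be told apart. Treated p53-null replicate 2 stood apart by sex-linked genes, with 399 Xist reads and 15 Y-linked reads. Treated replicate 1 of that genotype had 29 and 136, and untreated replicates 1 and 2 had 22 and 207, and 15 and 216. The wild-type libraries were mixed too, with 147 Y-linked reads in treated replicate 1 against 7 and 9 in treated replicates 2 and 3. Untreated wild-type replicates 1, 2 and 3 had 166, 0 and 2. Y-linked reads were thus high in both untreated p53-null libraries but in only 1 of the 3 untreated wild-type libraries. Xist was read in every wild-type library, at 110, 155 and 263 reads in treated and 82, 86 and 161 in untreated replicates 1, 2 and 3. Wild-type replicate 1 thus held both Xist and Y-linked reads in each treatment. These sex-linked reads are not scaled for depth, which was greater in the p53-null libraries. The part of sex in the member results was not tested.

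**Figure D1:**
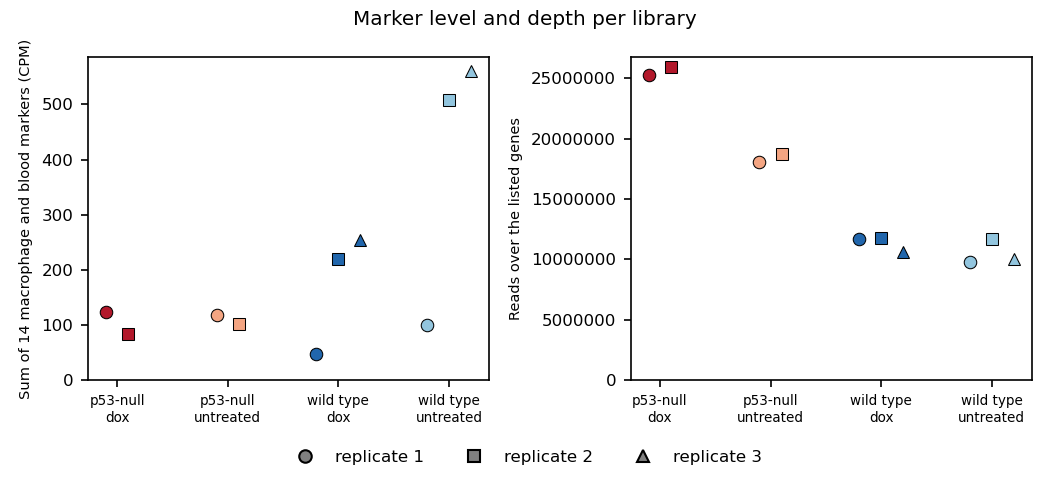
Summed level of 14 macrophage and blood markers (left, CPM) and reads over the listed genes (right) in each of the 10 libraries, with 1 point per library and its replicate number as the marker shape. The 4 p53-null libraries are the deepest, and the marker sum is highest in untreated wild-type replicates 2 and 3, at 507.3 and 560.4 CPM.

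The p53 pathway separated the groups as labelled. Cdkn1a, which encodes the cell-cycle inhibitor p21, had 53.9 and 44.4 CPM in treated and 31.5 and 29.3 CPM in untreated p53-null cells. In wild type it had 4443, 5096 and 4071 CPM with doxorubicin, against 558.9, 754.3 and 744.7 CPM without. No wild-type library came near a p53-null one.

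The starts of 4 genes are shown for what they do and do not hold of a p53 half-site (the 10-base consensus of which a full p53 site has a pair) and an NF-kB site. Both motifs were searched on both strands in RefSeq promoter windows of build GRCm38.p6, from 250 bases before to 50 bases after each annotated start. The 8 members had 11 such windows, some of them overlapping. The p53 half-site was found in 1 of the 11, a window of Birc2, and the NF-kB site in 1, a window of Xiap, against 8.36% and 8.46% of 32851 windows of the same length. The stretch of Casp2, the gene that differed between untreated genotypes, had no match of either. Cdkn1a, shown for comparison, had 2 half-sites in the window shown, beginning 73 and 51 bases before that start, and 0 in its other window. The same search found 1 half-site in the window of Mdm2, another p53 target, and 0 in that of Lrdd, a known p53 target described below. Capitals mark the matches, and each stretch has 60 bases, 5′ to 3′ on the gene's own strand.
Casp2, chr6:42264955-42265014, plus strand: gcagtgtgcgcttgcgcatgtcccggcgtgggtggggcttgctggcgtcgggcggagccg
Birc2, chr9:7836763-7836822, minus strand: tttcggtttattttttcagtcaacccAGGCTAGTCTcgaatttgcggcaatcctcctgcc
Xiap, chrX:42068388-42068447, plus strand: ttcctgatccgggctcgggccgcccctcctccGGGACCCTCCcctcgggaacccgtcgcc
Cdkn1a, chr17:29090891-29090950, plus strand: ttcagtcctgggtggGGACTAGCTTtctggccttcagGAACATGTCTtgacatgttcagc
The Birc2 match began 10 bases and the Xiap match 22 bases after the annotated start. A match is a description of these letters only, and the study's binding sites were not compared with these windows because they are on another mouse build.

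No tested caspase or inhibitor gene passed the test of a change with doxorubicin in either genotype. In p53-null cells 0 of 5 passed, beside 0% of all tested genes and 0% of the 4454 genes whose mean level lay in the range of the tested members (mean log2 CPM 0.10 to 2.46). In wild type 0 of 5 passed, against 12.6% of all genes and 10.7% of genes at that level. At an unadjusted p under 0.05 there were also 0 of 5 members in both genotypes, beside 1255 of all 11177 genes in p53-null and 3008 in wild-type cells. Limma-voom called 0 members in either genotype, beside 0 of all genes in p53-null and 1148 in wild-type cells. Without treated p53-null replicate 2 the p53-null folds were -0.80 for Casp2, -0.43 for Casp8, 0.14 for Casp9, 0.19 for Cflar and -1.31 for Xiap, and none passed. The difference between the responses passed for 0 of 5, against 2.34% of all genes and 2.22% at that level. Without treated p53-null replicate 2 these differences were -1.20 for Casp2, -0.67 for Casp8, -0.15 for Casp9, -0.18 for Cflar and -1.30 for Xiap. Between genotypes, Casp2 was the 1 of 5 that passed, higher in untreated p53-null than in untreated wild-type cells. That share stands beside 33.1% of all genes and 31.5% of genes at that level. Between treated genotypes 0 of 5 passed, against 12.1% and 8.89%. Without treated p53-null replicate 2 the treated genotype folds of Casp8, Casp9 and Cflar were 0.05, -0.68 and -0.40.

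**Figure D2:**
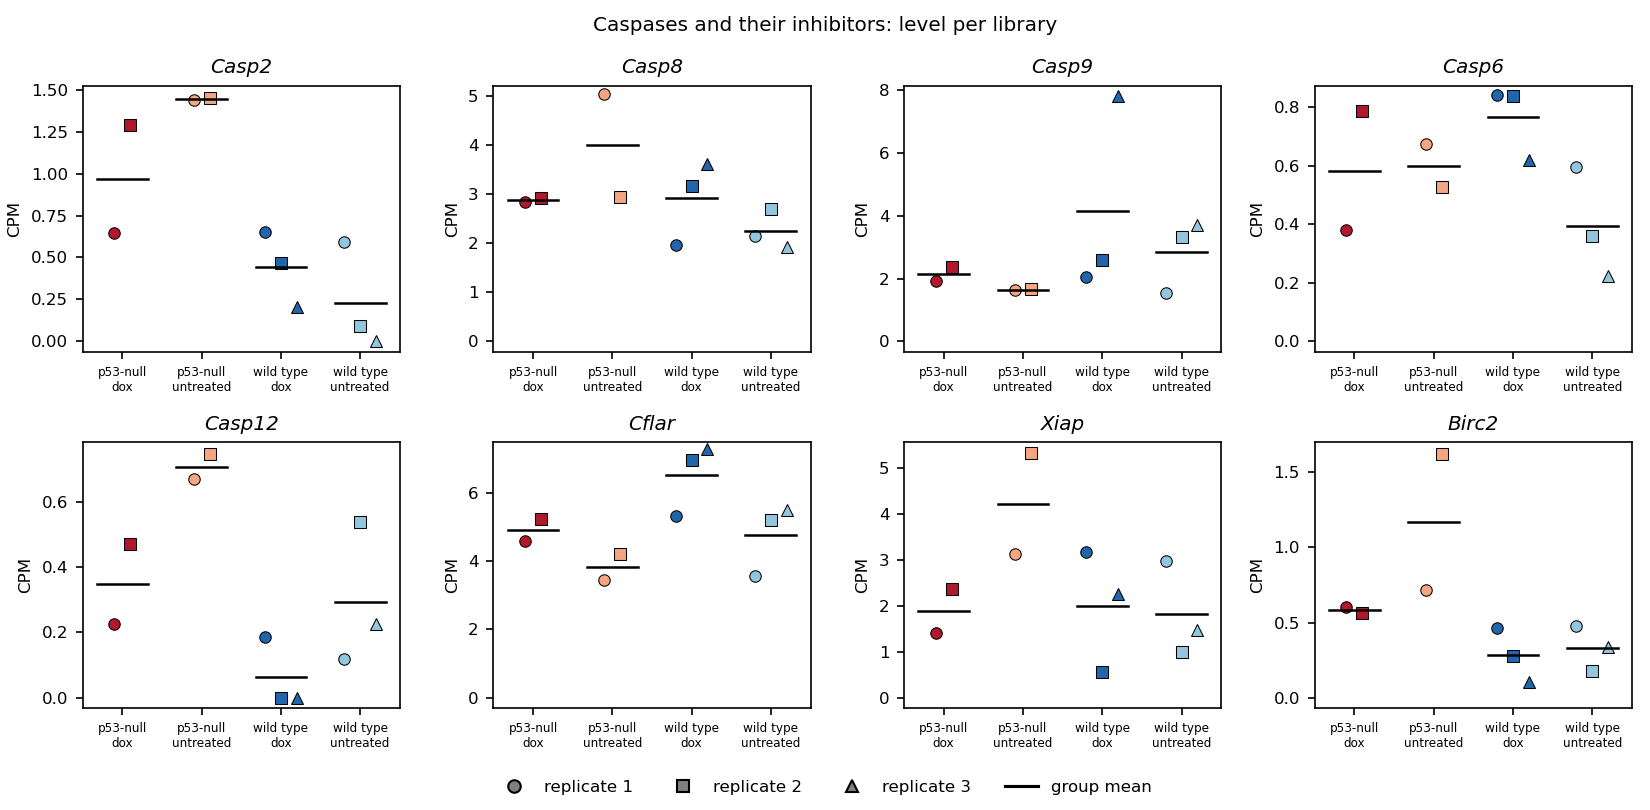
Level in CPM of the 8 members in each library, by group, with 1 point per library, the replicate number as marker shape and a bar at the group mean; each panel has its own linear axis. Casp2 in untreated p53-null cells lies at 1.44 and 1.45 CPM, above every wild-type library, and Casp9 is high in 1 library, treated wild-type replicate 3.

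Among the initiators, Casp2 encodes the caspase of the PIDDosome, which is known to act after DNA damage and after failed cell division. It had 17 and 41 reads (0.644 and 1.29 CPM) in treated and 30 and 33 reads (1.44 and 1.45 CPM) in untreated p53-null cells. In wild type it had 7, 5 and 2 reads (0.654, 0.465 and 0.206 CPM) with doxorubicin, against 5, 1 and 0 reads (0.595, 0.0898 and 0 CPM) without. Both untreated p53-null libraries stood above every wild-type library. Treated p53-null replicate 1 stood among the treated wild-type ones and replicate 2 above them.

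The untreated genotypes differed by a Casp2 log2 fold of 1.50 (SE 0.37, 95% interval 0.67 to 2.34, n = 2 and 3, limma adjusted p = 0.0154). Because Casp2 reached the level for testing only in p53-null libraries, it entered the test through the genotype in which it was high, which limits what this p shows. On summed reads, 63 in untreated p53-null against 6 in untreated wild-type cells, the depth-scaled ratio was 6.85, with an exact 95% interval of 2.98 to 19.4 for counting error only. The wild-type side rested on few reads, 5 of the 6 from replicate 1, and without that library the ratio was 28.9. With all libraries thinned to 9768396 reads the log2 fold was 1.30 (limma adjusted p = 0.0332). The call was lost without untreated wild-type replicate 3 (log2 fold 1.28, limma adjusted p = 0.0556) and without untreated p53-null replicate 1 or 2 (1.50 and 1.51, limma adjusted p = 0.0934 and 0.0947). Y-linked reads differed among these untreated libraries too, at 207 and 216 of 18099507 and 18698205 reads in p53-null cells. In wild type they were 166, 0 and 2 of 9768396, 11701250 and 10032214 reads.

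Genes at the level of the tested members leaned the same way as Casp2. Their median log2 fold between untreated genotypes was 0.57, with 27.7% called higher and 3.82% lower in p53-null cells, whereas the median of all genes was 0.09. After thinning to equal depth the median was still 0.57, with 25.1% higher and 3.36% lower. With library size alone it was 0.86, with 39.9% higher and 1.57% lower.

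Between treated genotypes the Casp2 log2 fold was 0.63 (SE 0.37, limma adjusted p = 0.302), and 0.33 without treated p53-null replicate 2. The doxorubicin log2 folds of Casp2 were -0.44 (SE 0.41) in p53-null and 0.43 (SE 0.33) in wild-type cells. Their difference, -0.87 (SE 0.53, 95% interval -2.05 to 0.31), did not pass at a limma adjusted p = 0.366.

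Casp8 encodes the initiator at death receptors. It had 2.84 and 2.93 CPM in treated and 5.04 and 2.94 CPM in untreated p53-null cells, against 1.96, 3.16 and 3.60 CPM in treated and 2.14, 2.69 and 1.91 CPM in untreated wild-type cells. Untreated p53-null replicate 1 stood alone, and replicate 2 was close to the other groups. The log2 fold between untreated genotypes was 0.68 (SE 0.34, 95% interval -0.08 to 1.43, limma adjusted p = 0.144) and between treated ones 0.02 (SE 0.34). With library size alone as the scaling, which moved the median of all genes by 0.35 between untreated and by 0.26 between treated genotypes, the untreated fold of Casp8 passed. The doxorubicin folds were -0.37 (SE 0.37) in p53-null and 0.29 (SE 0.30) in wild-type cells. The summed-read ratio between untreated genotypes, 172 reads in p53-null against 65 in wild type, was 1.73 with all libraries and 1.29 without untreated p53-null replicate 1.

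Casp9 encodes the initiator on the apoptosome, the wheel of Apaf1 and cytochrome c that forms when mitochondria leak. It had 1.93 and 2.36 CPM in treated and 1.63 and 1.67 CPM in untreated p53-null cells. In wild type it had 2.06, 2.60 and 7.82 CPM with doxorubicin, against 1.55, 3.32 and 3.71 CPM without. Treated wild-type replicate 3 held 76 reads and was far above every other library. Within each wild-type treatment Casp9 ran in the same replicate order as the summed macrophage and blood markers. In p53-null cells the order was the reverse within each treatment. The part of these markers' cells in the Casp9 values was not tested. The doxorubicin log2 folds were 0.29 (SE 0.55) in p53-null and 0.33 (SE 0.45, limma adjusted p = 0.677) in wild-type cells. Without treated wild-type replicate 3 the wild-type fold was -0.24, so its direction rested on that library. The genotype folds, -0.58 (SE 0.50) in untreated and -0.62 (SE 0.50) in treated cells, did not pass, and the treated one was -0.02 without the same library. In the GRCm38 annotation Casp9 overlaps Cela2a, an elastase gene, and the strand of counting is not given in the sources used here, so reads of the 2 genes may not be separated.

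Casp6 encodes an executioner that cuts nuclear lamins. It had 10 and 25 reads in treated and 14 and 12 in untreated p53-null libraries, against 9, 9 and 6 in treated and 5, 4 and 2 in untreated wild-type libraries. Scaled for depth, the 3 treated wild-type libraries (0.841, 0.837 and 0.617 CPM) all stood above the 3 untreated ones (0.595, 0.359 and 0.225 CPM), the nearest by a small margin. In p53-null cells the treated and untreated libraries overlapped, with a summed-read ratio of 1.01 (exact 95% interval 0.590 to 1.75, counting error only), or 0.636 without treated p53-null replicate 2. In wild type the ratio, 24 reads treated against 11 untreated, was 1.99 (0.938 to 4.50). When all 19032 genes with a read were fitted, the Casp6 log2 fold in wild type was 0.52 (SE 0.22, limma adjusted p = 0.245). In the same fit the difference of the responses was -0.56 (SE 0.35, limma adjusted p = 0.469). How many genes at this level separate by treatment as Casp6 did in wild type was not counted. The annotation places 2 long noncoding genes across Casp6.

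Casp12 encodes a rodent caspase of the inflammatory group that sits at the endoplasmic reticulum. It had 6 and 15 reads in treated and 14 and 17 in untreated p53-null libraries, against 2, 0 and 0 in treated and 1, 6 and 2 in untreated wild-type libraries. Every p53-null library was above the treated wild-type ones in CPM, and both untreated p53-null libraries (0.672 and 0.747 CPM) were above the untreated wild-type ones, of which the highest was 0.539 CPM. How many genes at such levels separate in this way was not counted. The ratio of summed reads between treated genotypes, 21 against 2, was 5.63, with an interval as wide as 1.38 to 49.5. It was 3.55 without treated p53-null replicate 2, and treated wild-type replicate 1 held both wild-type reads, so that no ratio could be formed without it. Between untreated genotypes, 31 against 9, it was 2.25 (1.04 to 5.37), and 4.10 without untreated wild-type replicate 2. In the fit of all genes with a read, the log2 folds were 0.64 (SE 0.24, limma adjusted p = 0.0951) between untreated and 0.60 (SE 0.24, limma adjusted p = 0.195) between treated genotypes, so neither passed.

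Among the inhibitors, Cflar encodes c-FLIP. It had 4.59 and 5.25 CPM in treated and 3.46 and 4.22 CPM in untreated p53-null cells, against 5.32, 6.98 and 7.31 CPM in treated and 3.57, 5.21 and 5.51 CPM in untreated wild-type cells. Replicate numbers are not shown to pair the libraries, and the p53-null libraries numbered 2 differed in Xist and Y-linked reads as given above. By number alone, each library was higher in Cflar with doxorubicin than the untreated library of that number, in both genotypes. The log2 folds were 0.32 (SE 0.33, 95% interval -0.41 to 1.06) in p53-null and 0.43 (SE 0.27, 95% interval -0.17 to 1.02, limma adjusted p = 0.340) in wild-type cells, and neither passed. With the replicate number as a block, which takes the numbers as pairs, the limma adjusted p were 0.501 and 0.176. On the linear scale these intervals ran from 0.754 to 2.08-fold and from 0.889 to 2.04-fold. The difference of the responses was -0.10 (SE 0.42). Between genotypes the folds were -0.26 (SE 0.30) untreated and -0.37 (SE 0.30) treated, and the untreated one was 0.09 under scaling by library size alone. Cflar too ran in the replicate order of the macrophage and blood markers within each wild-type treatment. In p53-null cells it ran in the reverse order. The part of these markers' cells was not tested.

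Xiap encodes the IAP that binds the active sites of caspases. It had 1.40 and 2.36 CPM in treated and 3.12 and 5.32 CPM in untreated p53-null cells, against 3.18, 0.558 and 2.26 CPM in treated and 2.98, 0.988 and 1.46 CPM in untreated wild-type cells. Both treated p53-null libraries were below both untreated ones, while the wild-type libraries varied by replicate more than by treatment. The p53-null doxorubicin fold was -0.98 (SE 0.60, 95% interval -2.32 to 0.37, n = 2 and 2, limma adjusted p = 0.573). The summed-read ratio, 112 treated against 186 untreated, was 0.451 (0.354 to 0.573), an interval that leaves out the spread between libraries that the limma test includes. In wild type the fold was 0.03 (SE 0.49), and the difference of the responses had a 95% interval of -2.74 to 0.73 (SE 0.78, limma adjusted p = 0.474). The untreated genotypes differed by 1.08 (SE 0.55, limma adjusted p = 0.151) and the treated ones by 0.08 (SE 0.55), or -0.18 without treated p53-null replicate 2. Xiap is X-linked, and the untreated genotypes also differed in sex-linked reads as given above.

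Birc2 encodes cIAP1, a ubiquitin ligase that keeps receptor complexes from activating caspase-8. It had 16 and 18 reads in treated and 15 and 37 in untreated p53-null libraries, against 5, 3 and 1 in treated and 4, 2 and 3 in untreated wild-type libraries. In CPM every p53-null library, from 0.566 to 1.63, stood above every wild-type library, from 0.103 to 0.476. How many genes at this level separate in this way was not counted. Genes at the level of the tested members leaned the same way, with 27.7% called higher and 3.82% lower in untreated p53-null cells. Birc2 was not among those genes. The summed-read ratios between genotypes were 3.77 (1.84 to 8.70) untreated, from 52 and 9 reads, and 2.02 (0.951 to 4.80) treated, from 34 and 9 reads. The untreated ratio was 2.28 without untreated p53-null replicate 2, and the treated ratio was 2.10 without treated p53-null replicate 2. Birc2 was not tested under the level filter, and the share of genes called in the fit without that filter is not reported here. In the fit of all genes with a read its log2 fold between untreated genotypes was 0.97 (SE 0.29, limma adjusted p = 0.0477), and its doxorubicin folds were -0.57 (SE 0.32) in p53-null and -0.10 (SE 0.26) in wild-type cells. Its p53-null summed-read ratio, 0.490 for 34 treated against 52 untreated reads, was 0.812 without untreated p53-null replicate 2. Birc2 lies next to Birc3, its near relative, and the annotation shows no gene overlapping it.

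**Figure D3:**
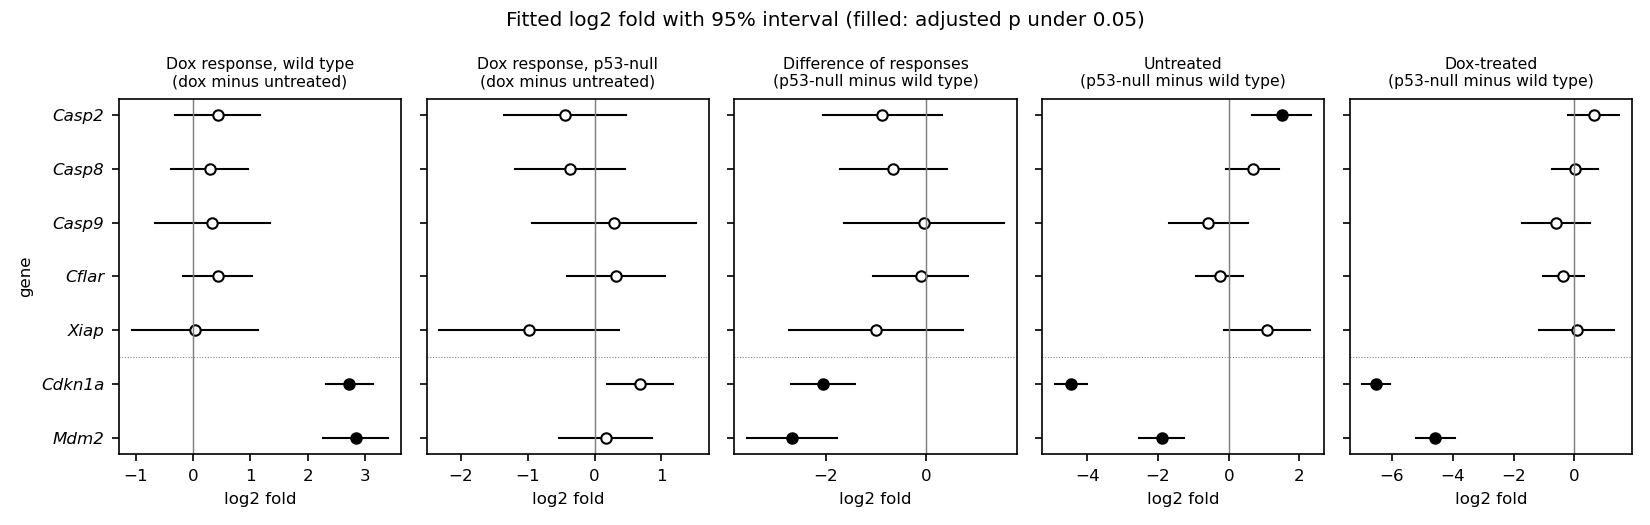
Fitted log2 folds of the 5 tested members and of the p53 targets Cdkn1a and Mdm2 in the 5 comparisons, with 95% intervals; filled points passed an adjusted p of 0.05, and each panel has its own axis. Of the members only Casp2 between untreated genotypes, at 1.50, is filled, while Cdkn1a and Mdm2 are filled in 4 panels each.

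Over the 5 tested members the median log2 fold was -0.37 in p53-null and 0.33 in wild-type cells with doxorubicin, beside -0.07 and 0.05 over all tested genes. Genes at the members' level had medians of -0.27 and 0.22. For the difference of the responses the members' median was -0.66, beside -0.51 at their level and -0.13 over all genes. Between untreated genotypes it was 0.68, beside 0.57 and 0.09, and between treated ones 0.02, beside 0.10 and 0.03. These medians leave out Casp6, Casp12 and Birc2, which were not tested.

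The genes that caspases work with were taken as 6 lists of 46 symbols, of which 44 were in the files and 32 tested. With doxorubicin 0 of the 32 passed in p53-null cells, 1 rose and 0 fell in wild type, and 0 passed for the difference of the responses. Between untreated genotypes 6 were higher and 5 lower in p53-null cells, beside 20.4% and 12.8% of all tested genes. Between treated ones 4 were higher and 3 lower, beside 5.24% and 6.83% of all. In the wild-type response 8.02% of all genes rose and 4.56% fell. Of the 11 untreated calls, 9 were lost without untreated p53-null replicate 1 (all but Acin1 and Birc6) and 8 without replicate 2 (all but Birc6, Cycs and Rbck1). All 7 treated calls were lost without treated p53-null replicate 2. Their median log2 folds were 0.00 in the p53-null response, 0.11 in the wild-type response, 0.26 for the difference, -0.34 untreated and -0.27 treated.

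The 1 partner that rose was Lrdd, which encodes PIDD, the scaffold of the PIDDosome that activates caspase-2 and a known p53 target. It had 0.644 and 0.472 CPM in treated and 0.624 and 0.483 CPM in untreated p53-null cells. In wild type it had 3.27, 4.74 and 1.54 CPM with doxorubicin, against 0.238, 0.359 and 0.112 CPM without, and the 2 wild-type groups did not overlap. Lrdd reached the level for testing only in treated wild-type libraries. It thus entered the test through the group in which it was high, which limits what its p-values show. The doxorubicin log2 folds were 0.00 (SE 0.41) in p53-null and 2.23 (SE 0.34, limma adjusted p = 0.00240) in wild-type cells, and the difference of the responses -2.23 (SE 0.53, limma adjusted p = 0.0588), which did not pass. Treated p53-null cells were lower than treated wild-type cells by a log2 fold of -1.70 (SE 0.37, limma adjusted p = 0.0158), and -1.53 (limma adjusted p = 0.146) without treated p53-null replicate 2. Casp2, the caspase that PIDD recruits, had a wild-type fold of 0.43 that did not pass.

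Apaf1, the scaffold of the apoptosome, had 5.23 and 5.35 CPM in treated and 1.92 and 4.96 CPM in untreated p53-null cells. In wild type it had 17.6, 18.3 and 12.1 CPM with doxorubicin, against 4.88, 11.3 and 8.54 CPM without. All treated wild-type libraries stood above all others, but the wild-type response of 0.97 (SE 0.39, limma adjusted p = 0.137) did not pass. Between treated genotypes Apaf1 was lower in p53-null cells by -1.49 (SE 0.43, limma adjusted p = 0.0496), a call that held in 9 of 23 alternatives and was lost without treated p53-null replicate 2 (-1.45, limma adjusted p = 0.250). Cycs, which encodes cytochrome c, was higher in untreated p53-null cells by 1.39 (SE 0.24, limma adjusted p = 0.00475), at 65.3 and 61.9 CPM against 28.0, 22.2 and 22.1 CPM in untreated wild type. Aven, an inhibitor of Apaf1, was lower there by -1.26 (SE 0.28, limma adjusted p = 0.01001), at 2.78 and 4.00 CPM against 8.10, 9.61 and 8.43 CPM.

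**Figure D4:**
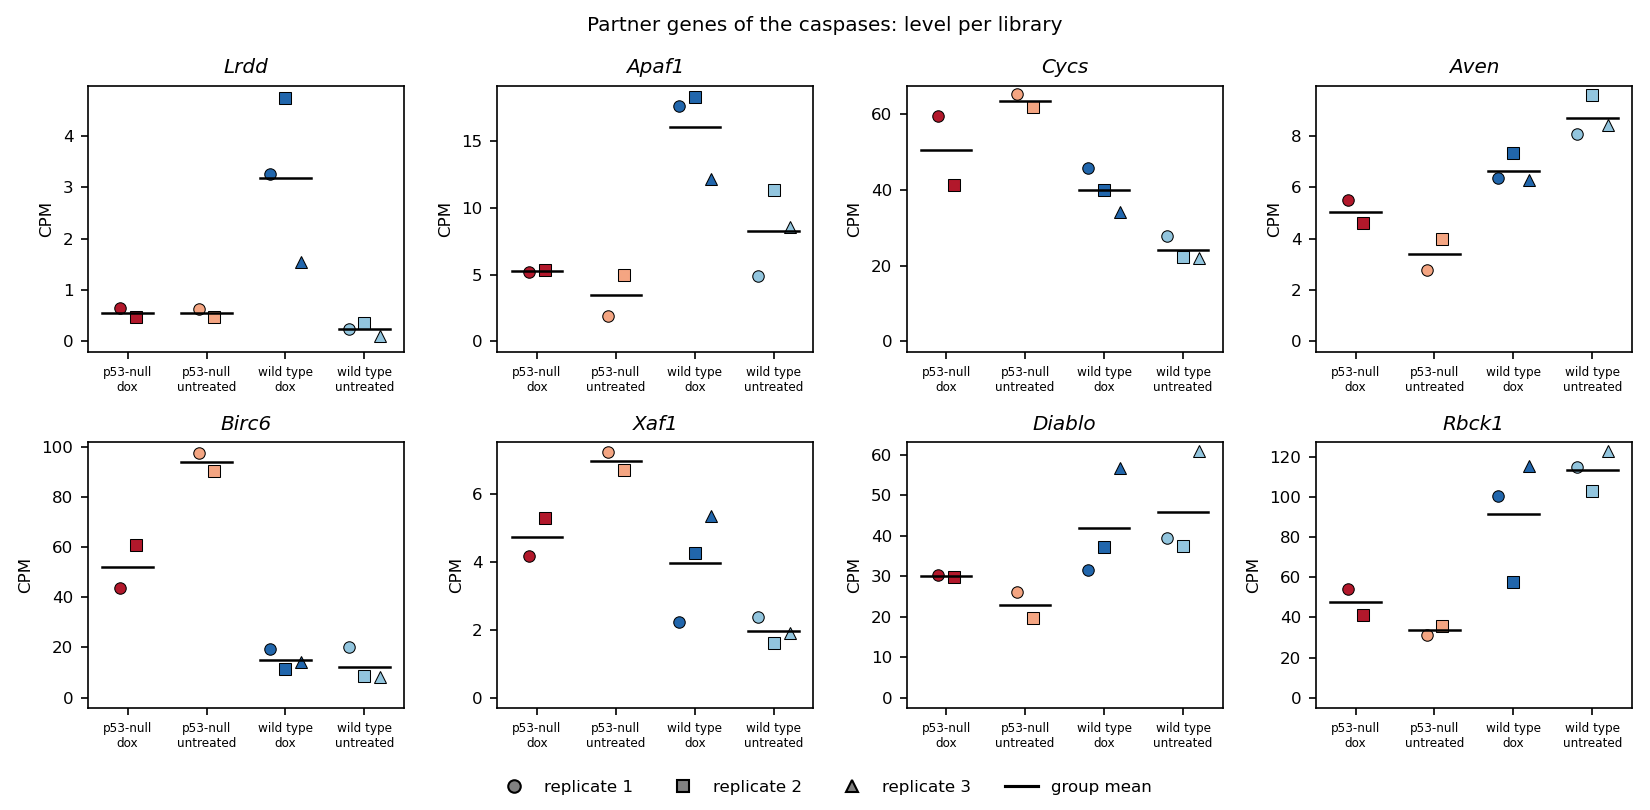
Level in CPM of 8 partner genes in each library, by group, with 1 point per library, the replicate number as marker shape and a bar at the group mean; each panel has its own linear axis. Lrdd and Apaf1 are highest in treated wild-type cells, at means of 3.19 and 16.0 CPM, and Birc6 is highest in untreated p53-null cells, at a mean of 93.8 CPM.

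Of the other IAP genes, 4 of 7 in the files were tested. Birc6, which encodes the giant IAP BRUCE, was higher in p53-null cells in both treatments and no other member passed. It had 97.4 and 90.2 CPM in untreated p53-null against 20.2, 8.71 and 8.09 CPM in untreated wild-type cells, a log2 fold of 3.00 (SE 0.39, limma adjusted p = 0.00144). In treated cells it had 43.5 and 60.8 CPM in p53-null against 19.4, 11.4 and 14.2 CPM in wild type, a fold of 1.78 (SE 0.39, limma adjusted p = 0.0158). Without treated p53-null replicate 2 the treated fold was 1.59 (limma adjusted p = 0.162).

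Of the antagonists that release caspases from IAPs, 3 of 4 were tested. Xaf1, an antagonist of XIAP, was higher in untreated p53-null cells by 1.61 (SE 0.36, limma adjusted p = 0.0106). Diablo, which encodes the mitochondrial antagonist Smac, was lower there by -0.97 (SE 0.31, limma adjusted p = 0.0373), and its fold was -0.58 (limma adjusted p = 0.163) under scaling by library size alone. Neither passed with doxorubicin, at Xaf1 folds of -0.53 in p53-null and 0.79 in wild-type cells.

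Of the partners at death receptors, where caspase-8, c-FLIP and cIAP1 meet, 9 of 10 were tested and 3 were lower in untreated p53-null cells, beside 12.8% of all tested genes. Rbck1 and Sharpin, subunits of the linear ubiquitin ligase of receptor complexes, had folds of -1.74 (SE 0.29, limma adjusted p = 0.00414) and -1.20 (SE 0.27, limma adjusted p = 0.0103). Ripk3, the kinase of necroptosis, had a fold of -1.76 (SE 0.58, limma adjusted p = 0.0419), a call that held in 12 of 23 alternatives. It was lost with library size alone (-1.37, limma adjusted p = 0.102), and without untreated p53-null replicate 1 (-1.32, limma adjusted p = 0.254) or 2 (-2.16, limma adjusted p = 0.0982). Leaving out untreated wild-type replicate 2 ended it too, as did leaving out replicate 3 (-1.53, limma adjusted p = 0.120). The spread of Ripk3 in untreated wild type was wide, at 16.1, 86.6 and 60.5 CPM, against 9.22 and 17.3 CPM in untreated p53-null cells. Macrophage and blood markers were also low in untreated wild-type replicate 1 (99.5 CPM) and high in replicates 2 and 3 (507.3 and 560.4 CPM), and their part in the Ripk3 difference was not tested. The 9 partners had a median fold of -1.20 between untreated genotypes, beside 0.09 over all tested genes. Between treated genotypes their median was -0.69, beside 0.03 over all tested genes. There 0 of the 9 passed, beside 12.1% of all tested genes.

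Of caspase substrates and effectors 10 of 12 were tested. Acin1 and Lmnb1, which encode the chromatin-condensing protein acinus and lamin B1, were higher in p53-null cells in both treatments. Their folds were 1.40 (SE 0.25) and 1.17 (SE 0.34) untreated, and 1.37 (SE 0.25) and 1.43 (SE 0.34) treated, with limma adjusted p of 0.00514 and 0.0273, and 0.00605 and 0.0230. The untreated Acin1 call was lost without untreated p53-null replicate 2 (limma adjusted p = 0.0591). The untreated Lmnb1 call was lost without untreated p53-null replicate 1 or 2 (limma adjusted p = 0.142 and 0.111). Leaving out untreated wild-type replicate 2 also ended it, as did replicate 3 (limma adjusted p = 0.0899). The treated folds were 1.22 and 1.61 without treated p53-null replicate 2, at limma adjusted p of 0.0805 and 0.104, so both calls were lost. Bid, whose product caspase-8 cuts to reach mitochondria, was higher in untreated p53-null cells by 0.93 (SE 0.31, limma adjusted p = 0.0439), a call that held in 8 of 21 alternatives. It had 29 and 25 reads in untreated p53-null against 5, 5 and 2 in untreated wild-type libraries. Bid reached the level for testing only in p53-null libraries. It thus entered the test through the genotype in which it was high, which limits what this p shows. Parp1, a DNA repair enzyme cut by caspases, was higher in treated p53-null cells by 1.34 (SE 0.38, limma adjusted p = 0.0454), and 0.93 (limma adjusted p = 0.353) without treated p53-null replicate 2. Dffb, which encodes the caspase-activated DNase, had 0.568 and 0.252 CPM in treated p53-null cells against 12.9, 1.49 and 30.1 CPM in treated wild type. Dffb reached the level for testing only in wild-type libraries, so it too entered the test through the genotype in which it was high. Its fold of -3.38 (SE 0.87, limma adjusted p = 0.0320) rested on treated wild-type replicates 1 and 3, and was -2.48 (limma adjusted p = 0.0635) without replicate 3. It was -3.07 (limma adjusted p = 0.238) without treated p53-null replicate 2.

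Of the other caspase genes on these lists, Casp14 had 43 reads over all 10 libraries, Casp4 8 and Casp1 7, and these did not reach the level for testing. Casp8ap2, which was tested, encodes a caspase-8 binding protein and had a fold of 1.19 (SE 0.42, limma adjusted p = 0.0501) between untreated genotypes, which did not pass.

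The genes most like each tested member were looked for among 5558 genes of mean log2 CPM of at least 3, by Pearson correlation of log2 levels over the 10 libraries, which share their depth and genotype. For Casp2 these were Cyfip1 (0.980) and Dnm1l (0.974), and for Casp8 Esf1 (0.841) and Cnih4 (0.827). For Casp9 they were Gm9907 (0.972) and Adam23 (0.967), for Cflar Pcyox1 (0.981) and Dirc2 (0.955), and for Xiap Ski (0.925) and Copb2 (0.879). These values are a description of the 10 libraries, picked as the highest of many.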

How the data were processed

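Per the labels' protocols, poly(A) RNA was sequenced from 3' ends. Per the submitters' processing notes, the build was mm9 and DESeq was used, with no version. No aligner, annotation or counting strand is given in the sources used here. The deposited values are 1 number per gene and library on a variance-stabilised scale close to log2, with a lowest value of -0.0425. Whole reads were recovered from the curve that all libraries share: 99.97% of 22112 values lay within 0.01 of a whole read, and the 7 others stood at 178577 reads or more. They are computed values and not a deposited table of counts, so the main test used no count model. Limma-voom and the intervals of summed-read ratios did use these reads as counts. Libraries were scaled with trimmed means of M values (30% and 5% trims), and log2 of CPM plus 0.5 was fitted in R 4.3.3 with limma 3.58.1, trend option, over all 10 libraries with 1 mean per group. Tests are two-sided. The procedures were tested on simulated data.

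Ratios of summed reads carry exact 95% intervals for counting error only, because reads were pooled over the libraries of a group and the spread between libraries is left out. Reads lacking molecular identifiers can also be copies of 1 molecule, which these intervals do not allow for. Whether replicate numbers pair libraries was checked by correlating deviations from group means. Same-numbered libraries of 1 genotype gave 0.38 and 0.38 in p53-null cells and 0.58, 0.34 and 0.61 in wild type. The 2 p53-null values are the same by construction, because deviations of 2 libraries from their mean mirror each other. No values for libraries of different numbers are given beside these, so the check does not settle whether numbers pair treatments in either genotype. Across genotypes the values were -0.09 to 0.24. No libraries were identical.

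The members, the lists and the rules were chosen with earlier results of these data known. The rule named all members, Cdkn1a and Mdm2, up to 4 genes of each list past the threshold by p, and the 2 genes most like each tested member. Values for Casp1, Casp4, Casp14 and Casp8ap2 are given outside this rule, and some listed genes are not reported here. The summed levels of endothelial markers (0 to 4.25 CPM) and epithelial markers (6.48 to 37.3 CPM) were low beside those of fibroblasts. Alternatives were 3 other scalings, 2 other pseudocounts, 2 other filters, the deposited values, limma-voom, a replicate block, fits of only the groups compared, and leaving out libraries. The list of binding sites was not used here.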

Additional observations from a re-analysis of the deposited data

Results flagged for a closer look

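Casp2 differed in opposite directions in the 2 genotypes between libraries of the same number, lower with doxorubicin for both p53-null numbers and higher for all 3 wild-type numbers. The numbers are not shown to pair the p53-null libraries: those numbered 2 had 399 Xist and 15 Y-linked reads treated, against 15 and 216 untreated. The p53-null minus wild-type response was -0.87, which did not pass limma's test of the difference (adjusted p = 0.366), and the largest count in untreated wild type was 5 reads. The same pattern was seen for Cycs, at -1.07 (limma adjusted p = 0.125). It was seen with the opposite signs for Diablo at 0.54 (limma adjusted p = 0.492), Aven at 0.89 (limma adjusted p = 0.227) and Rbck1 at 0.86 (limma adjusted p = 0.262), none of which passed. This pattern was looked for only among the members, the named partner genes and the p53 reference targets. How many of all tested genes show it was not counted, so no background stands beside these genes.

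The p53 reference targets differed between the genotypes' responses past the threshold. The p53-null minus wild-type difference was -2.05 for Cdkn1a (limma adjusted p = 0.00709) and -2.67 for Mdm2 (limma adjusted p = 0.00898). For Ccng1 it was -3.30 (limma adjusted p = 0.00497) and for Bbc3 -2.96 (limma adjusted p = 0.00878).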

How the results depend on the processing

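The counts of members that passed with doxorubicin in each genotype, for the difference and between treated genotypes were 0 under every alternative run. Between untreated genotypes 1 member passed. It was 2 with library size alone (Casp2 and Casp8) and 2 with no level filter (Birc2 and Casp2). It was 0 with at least 1 CPM in all 10 libraries and 0 without both p53-null libraries numbered 2, where Casp2 was not among the genes tested. Leaving out 1 library at a time gave 0 to 1. The Casp2 adjusted p by limma ran from 0.00662 to 0.0947, with a call in 18 of 21 alternatives.

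Of 555 member folds under alternatives, 31 changed sign, and no called fold did. The Xiap wild-type response of 0.03 was -0.0013 with median-of-ratios factors, -0.04 with upper quartile factors, -0.01 with 0.1 CPM added, -0.02 with the values as deposited, -0.0035 without both p53-null libraries numbered 2 and -0.00052 after thinning. It ran from -0.34 to 0.54 with 1 library left out. The Casp9 difference of -0.04 was 0.04 with median-of-ratios and 0.04 with upper quartile factors. It was 0.03 with the deposited values, limma-voom and thinning. With 1 library left out it ran from -0.37 to 0.52, and the wild-type response of Casp9 from -0.24 to 0.67. The untreated Cflar fold was 0.09 with library size alone, and its difference ran from -0.24 to 0.09. The treated Xiap fold was -0.18 without both p53-null libraries numbered 2 and ran from -0.42 to 0.45. The treated Casp8 fold ran from -0.20 to 0.24, and the p53-null Mdm2 fold from -0.01 to 0.31. The causes were not tested.

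In the genotype comparisons the replicate block tied libraries of the same number across genotypes. The check of replicate numbers did not show these to be paired (-0.09 to 0.24). The untreated Casp2 fold of 1.29 (limma adjusted p = 0.0227) under the block is therefore no further test of that call. The block changed no member call and moved the counts over all genes from 1406 to 2600 for the wild-type response and from 261 to 1076 for the difference. Without both p53-null libraries numbered 2 those counts were 779 and 0, and 216 and 304 between untreated and treated genotypes, against 3705 and 1349. Fitting only the groups compared gave 729 for the wild-type response and 646 between treated genotypes. The difference gave 120 with upper quartile factors and 115 with at least 1 CPM in all libraries. The p53-null response gave 2 with no level filter. With 1 library left out, the counts ran from 712 to 1459 for the wild-type response, from 38 to 320 for the difference, from 422 to 4226 untreated and from 467 to 1493 treated. Thinning to equal depth was chosen after seeing the data. With 1 library left in a group, that library is assumed to vary like the others.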
